A study of Mus musculus with 2 samples.

Results

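The Hox cluster genes are the genes whose symbol reads Hox, a letter from a to d and a number, with or without the ending os for an opposite-strand transcript. The deposited feature table held 42 of them among 32285 features. They comprised 12 Hoxa members on chromosome 6, 12 Hoxb members on chromosome 11, 9 Hoxc members on chromosome 15 and 9 Hoxd members on chromosome 2. The symbols alone set the members, and no measured value entered this rule. The rule itself was chosen with earlier results of these data known. Of the 42, 39 code for homeodomain transcription factors, and Hoxa11os, Hoxb3os and Hoxb5os are transcripts of the opposite strand.

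The uterus of female mice was profiled on gestational day 3.5 by droplet single-cell sequencing of polyadenylated RNA after trypsin digestion. One library came from Pgrcre/+Mig-6f/f mice (KO) and one from Mig-6f/f mice (Cont), so that both carry floxed Mig-6 alleles and KO alone carries Cre. Mig-6, the product of Errfi1, restrains the EGF receptor, and Cre is placed in the progesterone receptor gene Pgr, which directs deletion to cells that express Pgr. Age and the number of mice per library are not given in the sources used here. With 1 library per genotype, every difference below is one between these libraries, without a replicate check.

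The deposited matrices held 23317904 UMIs (unique molecular identifiers) over 3118 barcodes in KO and 44871170 UMIs over 4627 barcodes in Cont. After filtering, 1049 KO and 3180 Cont barcodes met the rule for stroma, 1422 KO and 741 Cont barcodes that for epithelium and 49 KO and 69 Cont barcodes that for muscle. The other 361 KO and 313 Cont barcodes included 197 KO and 160 Cont immune and 40 KO and 55 Cont endothelial barcodes. Levels are UMIs per 1000000 UMIs of the class (CPM). Markers left out of the class rules went with the class names: 6 stromal markers summed to 1909 CPM in KO stroma and 1583 CPM in Cont stroma, and 6 epithelial markers to 8498 CPM in KO epithelium and 6197 CPM in Cont epithelium. Muscle markers summed to 23179.7 CPM in KO muscle and 29975 CPM in Cont muscle. Errfi1 stood at 729.7 CPM in KO stroma and 196 CPM in Cont stroma, and at 513 CPM in KO epithelium and 575 CPM in Cont epithelium. In muscle it stood at 1097 CPM in KO and 289.9 CPM in Cont. The stromal and muscle values went against the label KO. Pgr, from which Cre is driven, stood at 394 CPM in KO stroma and 238 CPM in Cont stroma, and at 59.3 CPM in KO epithelium and 50.1 CPM in Cont epithelium. Which part of Errfi1 is deleted is not given, so UMIs from outside it would check nothing, and KO below means the library labelled knockout.

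Hox genes lie side by side in clusters. Along the body axis, genes at one end of a cluster act towards the head and genes at the other end, which carry the high numbers, towards the tail. In the embryonic reproductive tract, Hoxa9, Hoxa10, Hoxa11 and Hoxa13 mark successive stretches from oviduct to vagina. In the adult mouse uterus Hoxa10 and Hoxa11 are known for their role in stroma, where loss of either impairs implantation and the decidual response. Hox proteins bind DNA together with partners of the Pbx, Meis and Pknox families.

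The starts of 3 genes are printed because these genes carried the contrast between stroma and epithelium described next. The windows run from 250 bases before to 50 bases after an annotated start, come from RefSeq on GRCm38.p6 and read 5′ to 3′ on the gene's strand, with every CG in capitals. The counts were made on mm39, so the windows serve as sequence only. Hoxa10 has windows at chr6:52240805-52241104 and at chr6:52234890-52235189, both on the minus strand. The window of Hoxa11os is at chr6:52244993-52245292 on the plus strand and that of Hoxb8 at chr11:96281655-96281954 on the plus strand.
Hoxa10, first window: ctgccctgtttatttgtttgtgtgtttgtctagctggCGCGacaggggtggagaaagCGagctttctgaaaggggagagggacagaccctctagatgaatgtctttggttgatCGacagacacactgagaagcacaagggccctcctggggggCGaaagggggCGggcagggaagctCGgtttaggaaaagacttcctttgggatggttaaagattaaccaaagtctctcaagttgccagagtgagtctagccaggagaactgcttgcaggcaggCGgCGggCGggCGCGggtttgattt
Hoxa10, second window: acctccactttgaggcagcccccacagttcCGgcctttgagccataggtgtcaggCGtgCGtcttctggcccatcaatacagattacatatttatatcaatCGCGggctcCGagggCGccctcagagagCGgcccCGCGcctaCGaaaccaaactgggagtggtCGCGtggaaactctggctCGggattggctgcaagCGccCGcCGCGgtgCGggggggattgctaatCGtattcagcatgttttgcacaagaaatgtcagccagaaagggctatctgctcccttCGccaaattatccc
Hoxa11os: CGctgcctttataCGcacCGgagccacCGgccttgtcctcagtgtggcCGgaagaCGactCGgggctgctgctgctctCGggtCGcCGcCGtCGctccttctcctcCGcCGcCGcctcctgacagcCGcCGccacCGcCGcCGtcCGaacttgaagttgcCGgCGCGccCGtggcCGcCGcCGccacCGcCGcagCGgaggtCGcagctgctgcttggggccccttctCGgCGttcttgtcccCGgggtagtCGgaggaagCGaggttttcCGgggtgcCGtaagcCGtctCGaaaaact
Hoxb8: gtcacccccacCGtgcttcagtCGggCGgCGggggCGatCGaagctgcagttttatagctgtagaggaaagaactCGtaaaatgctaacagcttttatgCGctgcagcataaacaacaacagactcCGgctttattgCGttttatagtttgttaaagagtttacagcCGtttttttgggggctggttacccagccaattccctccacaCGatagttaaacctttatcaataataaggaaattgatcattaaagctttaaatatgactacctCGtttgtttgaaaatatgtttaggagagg

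The Hoxa11os window held 41 CG pairs, the Hoxa10 windows 12 and 21, and the Hoxb8 window 13. Windows were found for 24 of the 42 members, 26 in all, with a median of 17 CG pairs and a range of 4 to 45. Over all 32851 windows of the table the median was 7. The letters TGATNNAT, a form bound by Hox and Pbx proteins together, occurred on either strand in 4 member windows (15.4%) and in 8.85% of all windows. The letters AGAACA, part of the element that the progesterone receptor binds, occurred on either strand in 2 member windows (7.69%) and in 19.0% of all windows. TATAAA occurred on either strand in 5 member windows (19.2%) and in 13.6% of all windows. Matches of different motifs were counted whether or not they overlapped. A match describes letters and marks no site.

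Stroma and epithelium held different Hox clusters. Stromal barcodes held Hoxa and Hoxd transcripts, and epithelial barcodes held Hoxb transcripts. Hoxa members gave 70.4% of the Hox UMIs of KO stroma and 76.3% of those of Cont stroma. Hoxd members gave 26.1% in KO stroma and 22.4% in Cont stroma. Hoxb members gave 99.0% of the Hox UMIs of KO epithelium and 97.2% of those of Cont epithelium, while in stroma they gave 1.80% in KO and 0.587% in Cont. All 42 members together stood at 858 CPM (829 to 887) in KO stroma and 1193 CPM (1180.2 to 1205) in Cont stroma, a ratio of 0.719 (0.694 to 0.745). In epithelium they stood at 246 CPM (238 to 253) in KO epithelium and 344 CPM (333 to 355) in Cont epithelium, a ratio of 0.715 (0.684 to 0.747). Much of the stromal difference lay in Hoxa11os alone, at 169 CPM in KO stroma and 373 CPM in Cont stroma. The stromal sum is therefore no measure of a fall shared by its members, and 15 of the 22 members tested in stroma stayed within 2-fold. Immune barcodes, taken as a measure of free RNA without a test of this use, held 12.8 CPM in KO and 13.7 CPM in Cont. Hoxb4 had 3 KO and 4 Cont UMIs there. Its immune level was 58.9% (12.0 to 174) of its epithelial level in KO and 18.4% (4.97 to 47.7) in Cont. For epithelial markers outside the class rule that share was 1.07% to 7.19% in KO and 0% to 2.46% in Cont. Hoxb4 thus lay above the marker range in both libraries, and whether its immune UMIs were free RNA was not tested.

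**Figure D1:**
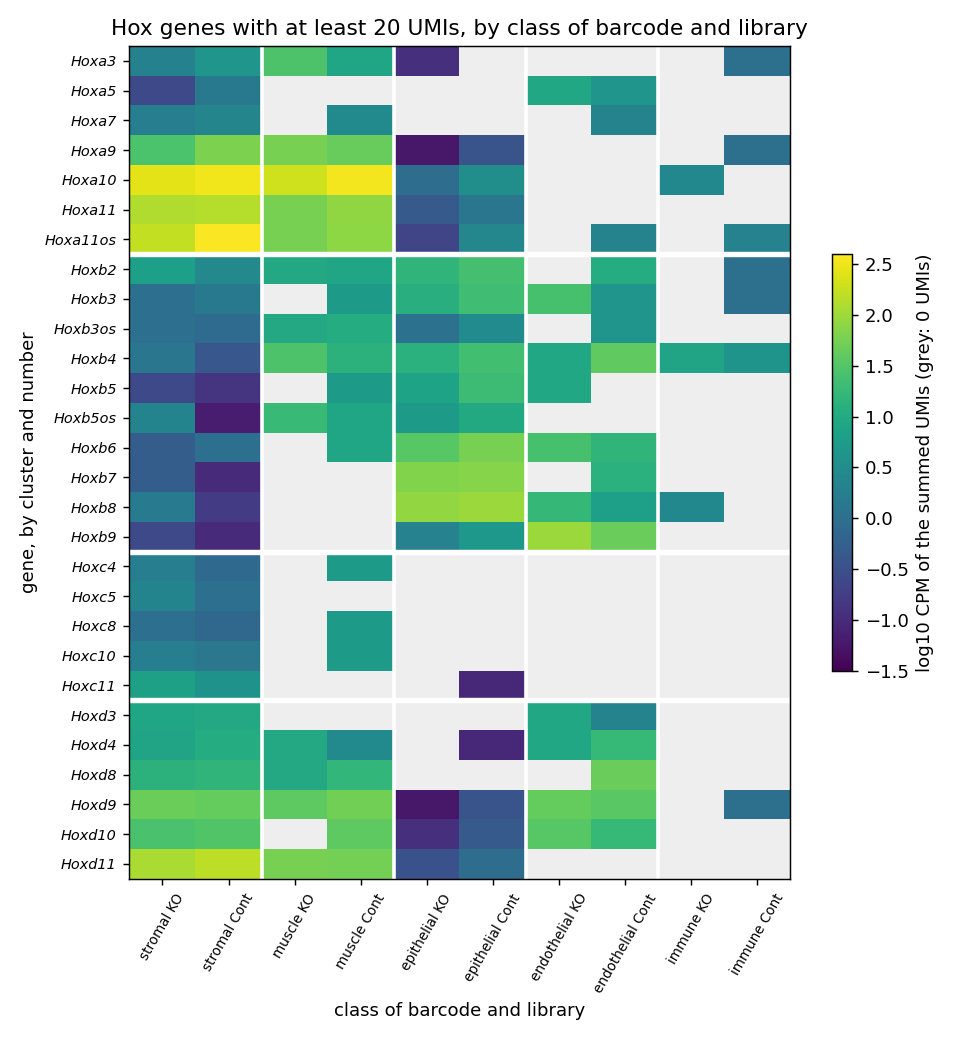
Level of each Hox gene with at least 20 UMIs in stromal, epithelial or muscle barcodes (rows, by cluster and number) in 5 classes of barcode, with KO left of Cont in each class; colour is log10 of the CPM of summed UMIs, and grey marks 0 UMIs. Hoxa and Hoxd rows are bright in stromal and muscle columns, Hoxb rows in epithelial columns, and immune columns are nearly empty.

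Of 21 members with at least 20 UMIs over both classes in each library, 11 (52.4%) were at least 2-fold higher in stroma than in epithelium in both libraries, against 17.3% of the 13029 features tested in the same way. All 11 were also past 10-fold, against 6.36% of features. They were Hoxa9, Hoxa10, Hoxa11, Hoxa11os, Hoxc11, Hoxd3, Hoxd4, Hoxd8, Hoxd9, Hoxd10 and Hoxd11. Another 9 (42.9%) were at least 2-fold higher in epithelium than in stroma in both libraries, against 16.9% of features. They were Hoxb2, Hoxb3, Hoxb4, Hoxb5, Hoxb5os, Hoxb6, Hoxb7, Hoxb8 and Hoxb9, and 6 of them, Hoxb3, Hoxb4, Hoxb5, Hoxb6, Hoxb7 and Hoxb8, were past 10-fold in both libraries, against 6.99% of features. The remaining member, Hoxb3os, had an epithelial over stromal ratio of 1.08 (0.358 to 4.35) in KO and 3.48 (2.0 to 6.12) in Cont, with 95% counting intervals in brackets here and below.

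**Figure D2:**
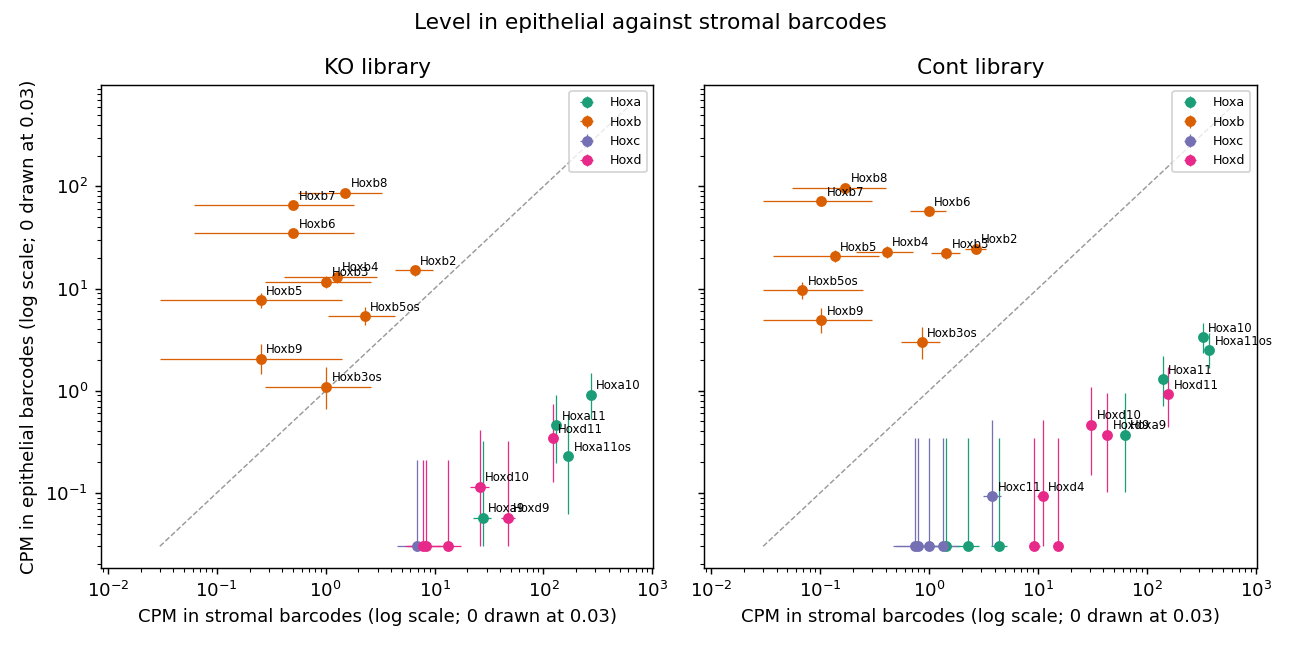
Level in epithelial barcodes (vertical) against stromal barcodes (horizontal) for each Hox gene with at least 20 UMIs in that library over both classes, in CPM on log axes, KO on the left and Cont on the right. Lines are 95% Poisson intervals and points at 0 are drawn at 0.03, without a name where the epithelial level is 0; Hoxa, Hoxc and Hoxd genes lie below the diagonal of equal levels and Hoxb genes above it, Hoxb3os in KO close to it.

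Among the Hoxa members, Hoxa10 was 296-fold (181 to 519) higher in KO stroma and 97.3-fold (70.2 to 139) higher in Cont stroma than in epithelium of the same library. Hoxa11, which acts beside Hoxa10 in uterine stroma, was 286-fold (144 to 666) higher in KO and 108-fold (64.0 to 197) higher in Cont. Hoxa11os, transcribed across Hoxa11 from the opposite strand, was 736-fold (286 to 2707) higher in KO and 149-fold (102 to 226) higher in Cont. The epithelial remnant of all 3 was small in both libraries. The epithelial level of Hoxa10 was 0.338% (0.193 to 0.552) of the stromal level in KO and 1.03% (0.719 to 1.42) in Cont. For 6 stromal markers the same share was 0.248% to 1.93% in KO and 0.908% to 3.34% in Cont.

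The Hoxd members lay on the stromal side too. Hoxd11, a patterning gene of limb and kidney, was 353-fold (161 to 966) higher in KO and 169-fold (91.7 to 352) higher in Cont in stroma. Hoxd10 was 227-fold (61.3 to 1901) higher in KO and 66.4-fold (28.4 to 205) higher in Cont. Hoxd8 had 53 stromal and 0 epithelial UMIs in KO, and 444 stromal and 0 epithelial UMIs in Cont. Against a floor of 3 epithelial UMIs per library, it was at least 77.9-fold higher in KO stroma and at least 54.4-fold higher in Cont stroma. Hoxd3, at the low-numbered side of the cluster, was at least 48.5-fold higher in KO stroma and at least 33.4-fold higher in Cont stroma. At the other end Hoxd12 had 0 UMIs in KO stroma and 3 UMIs in Cont stroma. Hoxd13 had 0 UMIs in every class and library, as had Hoxa13, Hoxb13, Hoxc12 and Hoxc13.

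Among the Hoxb members, Hoxb8 was 57.2-fold (26.2 to 156) higher in KO and 569.8-fold (243 to 1759) higher in Cont in epithelium than in stroma. Hoxb7, whose promoter is used to drive transgenes in the ureteric bud, was 129-fold (35.8 to 1070.2) higher in KO and 699.6-fold (238 to 3399.8) higher in Cont. Both genes were epithelial in both libraries. The stromal level of Hoxb8 was 1.75% (0.640 to 3.81) of its epithelial level in KO and 0.175% (0.0569 to 0.411) in Cont. For 6 epithelial markers outside the class rule that share was 0.421% to 1.65% in KO and 0.0424% to 0.639% in Cont. Hoxb2, Hoxb3 and Hoxb4 were above all 6 markers in both libraries, with intervals clear of the marker range. Hoxb5 and Hoxb9 rest on 1 KO stromal UMI each, at 3.29% (0.0827 to 18.7) for Hoxb5 and 12.3% (0.302 to 72.8) for Hoxb9, and on 4 and 3 Cont stromal UMIs, at 0.660% (0.178 to 1.71) for Hoxb5 and 2.08% (0.416 to 6.42) for Hoxb9, with intervals that span part of that range. Hoxb2 had 43.8% (28.1 to 65.6) in KO and 11% (8.42 to 14.1) in Cont. Hoxb5os had 42.2% (18.7 to 83.6) in KO, from 9 UMIs, and 0.707% (0.0845 to 2.62) in Cont, from 2 UMIs. Hoxb3 had 8.69% (2.35 to 22.6) in KO and 6.49% (4.56 to 9.04) in Cont.

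Both codes were found together in 5.05% of KO and 5.28% of Cont stromal barcodes, and in 1.55% of KO and 4.72% of Cont epithelial barcodes. In KO stroma 87.0% of barcodes held a Hoxa or Hoxd UMI and 5.24% a Hoxb UMI, and in Cont stroma 98.5% and 5.31%. In KO epithelium 82.1% of barcodes held a Hoxb UMI and 1.69% a Hoxa or Hoxd UMI, and in Cont epithelium 91.1% and 6.21%. Depth differed, with median UMIs per barcode of 3642 in KO stroma and 8928.5 in Cont stroma, and of 9523.5 in KO epithelium and 11641 in Cont epithelium. At 2000 UMIs per barcode, 73.8% of 939 KO and 85.3% of 3151 Cont stromal barcodes held a Hoxa or Hoxd UMI. A Hoxb UMI was then present in 36.9% of 1368 KO and 47.5% of 714 Cont epithelial barcodes. Both codes together were then present in 0.0731% of KO and 0.280% of Cont epithelial barcodes. In stroma at that depth, both codes were present in 3.30% of KO and 1.27% of Cont barcodes, and a Hoxb UMI in 3.62% of KO and 1.46% of Cont barcodes, so the near equality at deposited depth did not hold. Thinning left out 110 KO and 29 Cont stromal barcodes and 54 KO and 27 Cont epithelial barcodes. In immune barcodes at that depth, 1.18% of 85 in KO and 0.667% of 150 in Cont held a Hoxa or Hoxd UMI, and 3.53% in KO and 2.0% in Cont a Hoxb UMI. The Hoxa or Hoxd shares rest on 1 KO and 1 Cont barcode. The Hoxb shares rest on 3 KO and 3 Cont barcodes. Thinning left out 112 KO and 10 Cont immune barcodes.

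**Figure D3:**
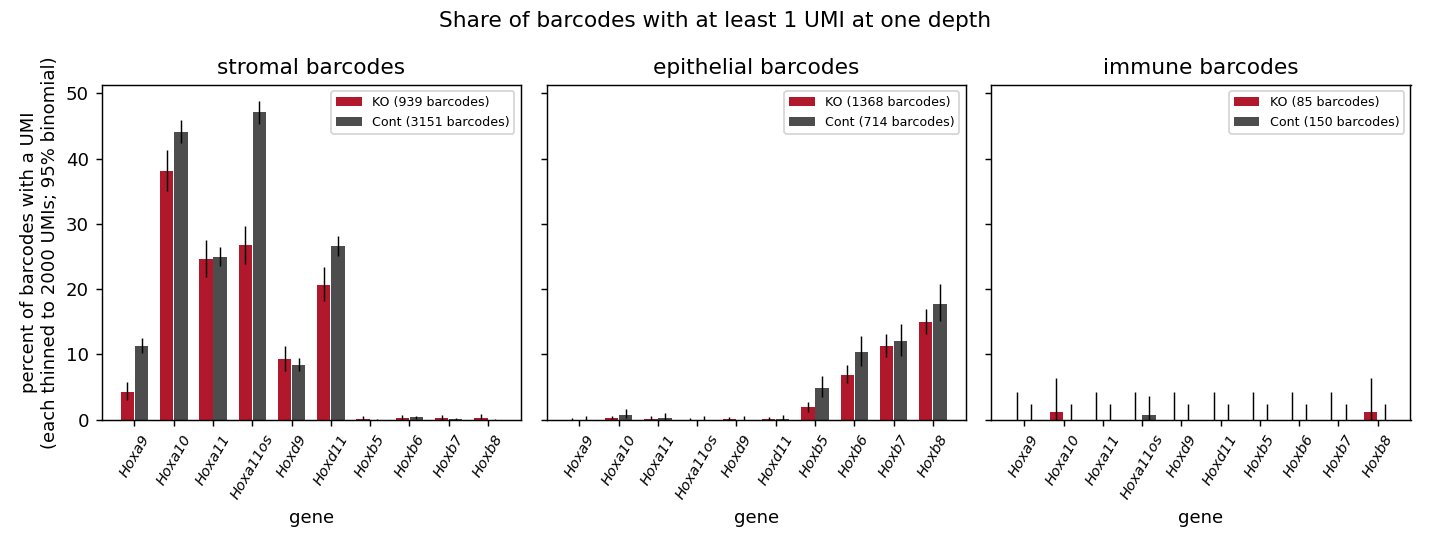
Percent of barcodes with at least 1 UMI of the named Hox genes after every barcode was thinned to 2000 UMIs, in stromal, epithelial and immune barcodes, KO bars left of Cont bars, with exact 95% binomial intervals. In stroma Hoxa11os reaches 26.7% in KO and 47.1% in Cont, and in epithelium Hoxb8 reaches 15% in KO and 17.8% in Cont.

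In stroma, Hoxa11os and Hoxa9 were lower in KO, while Hoxa10, Hoxa11 and the Hoxd members stayed within 2-fold of Cont. Hoxa11os stood at 169 CPM (156 to 182) in KO and 373 CPM (366 to 380.3) in Cont, a ratio of 0.452 (0.418 to 0.489). Hoxa11, its partner on the other strand, stood at 131 CPM (120.3 to 143) in KO and 139.8 CPM (136 to 144) in Cont, a ratio of 0.939 (0.856 to 1.03). The intervals of the 2 libraries were apart for Hoxa11os and overlapped for Hoxa11. GENCODE M21 lists the pair as overlapping on opposite strands, and the use of strand in counting is not given, so the split of reads between them is uncertain. At 2000 UMIs per barcode Hoxa11os was present in 26.7% (23.9 to 29.7) of KO and 47.1% (45.3 to 48.8) of Cont stromal barcodes, and Hoxa11 in 24.6% (21.9 to 27.5) of KO and 25.0% (23.5 to 26.5) of Cont stromal barcodes. Unthinned shares were 38.3% in KO and 83.1% in Cont for Hoxa11os, and 35.7% in KO and 64.0% in Cont for Hoxa11.

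Hoxa9, known from the oviduct end of the tract, stood at 27.6 CPM (22.7 to 33.3) in KO and 63.0 CPM (60.1 to 65.9) in Cont, a ratio of 0.438 (0.358 to 0.532). Its neighbour Hoxa10 stood at 271 CPM (255 to 288) in KO and 325 CPM (319 to 332) in Cont, a ratio of 0.834 (0.782 to 0.888). For both genes the intervals of the 2 libraries did not overlap. At 2000 UMIs per barcode Hoxa9 was present in 4.26% (3.06 to 5.76) of KO and 11.4% (10.3 to 12.5) of Cont stromal barcodes. Hoxa10 was present in 38.1% (35.0 to 41.3) of KO and 44.1% (42.4 to 45.9) of Cont stromal barcodes. Hoxa3, known for patterning thymus and parathyroid, stood at 2.02 CPM in KO and 4.41 CPM in Cont, a ratio of 0.459 (0.194 to 0.933) from 8 KO and 129 Cont UMIs. Hoxa5, a gene of lung development, had 1 KO and 42 Cont UMIs, a ratio of 0.176 (0.00436 to 1.04) whose interval includes 1. Hoxa7 stood at 1.77 CPM in KO and 2.29 CPM in Cont, a ratio of 0.774 (0.300 to 1.68). Hoxa3 overlaps Hoxa4, Hoxa5 and Hoxa6 in the annotation, which leaves the values of Hoxa3 and Hoxa5 uncertain.

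The 6 Hoxd members with at least 20 UMIs in stroma had ratios between 0.711 and 1.09. Hoxd11 stood at 121 CPM (111 to 133) in KO and 157 CPM (152 to 161) in Cont, a ratio of 0.775 (0.704 to 0.851). Hoxd9, which acts with Hoxa9 and Hoxb9 in mammary growth during pregnancy, stood at 47.1 CPM (40.6 to 54.4) in KO and 43.3 CPM (40.9 to 45.7) in Cont, a ratio of 1.09 (0.928 to 1.27). Of the 6, Hoxd11 had the sole interval that left out 1. Hoxd10 stood at 26.1 CPM in KO and 30.9 CPM in Cont, a ratio of 0.845 (0.682 to 1.04), and Hoxd8 at 13.4 CPM in KO and 15.2 CPM in Cont, a ratio of 0.884 (0.652 to 1.18). Hoxd3 stood at 8.35 CPM in KO and 9.29 CPM in Cont, a ratio of 0.899 (0.606 to 1.29), and Hoxd4, which overlaps it in the annotation, at 7.85 CPM in KO and 11 CPM in Cont, a ratio of 0.711 (0.475 to 1.03).

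The 9 Hoxc members together stood at 14.2 CPM (10.7 to 18.4) in KO stroma and 8.64 CPM (7.61 to 9.78) in Cont stroma, a ratio of 1.64 (1.2 to 2.20). Hoxc11, a paralogue of Hoxa11 and Hoxd11, stood at 6.83 CPM in KO and 3.83 CPM in Cont, a ratio of 1.79 (1.13 to 2.74). Hoxc4 was called higher in KO, from 7 KO and 23 Cont UMIs, with a ratio of 2.25 (0.817 to 5.43) that turned to 0.610 after thinning. Hoxc5 was called higher in KO, from 9 KO and 29 Cont UMIs, with a ratio of 2.30 (0.957 to 4.99). Both intervals include 1. Hoxc8 had a ratio of 1.35 (0.337 to 3.97) and Hoxc10 of 1.33 (0.502 to 3.01). Hoxc5 overlaps Hoxc6, Hoxc8, Hoxc9 and Hoxc10 in the annotation.

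Of the Hoxb members in stroma, Hoxb2, a hindbrain gene, stood at 6.58 CPM (4.30 to 9.64) in KO and 2.70 CPM (2.14 to 3.36) in Cont, a ratio of 2.44 (1.5 to 3.84). The intervals of the 2 libraries did not overlap. Hoxb3 had a ratio of 0.706 (0.184 to 1.94), Hoxb3os of 1.19 (0.300 to 3.43) and Hoxb6 of 0.511 (0.0591 to 2.02). The 12 Hoxb members together stood at 15.4 CPM (11.8 to 19.8) in KO stroma and 7.0 CPM (6.08 to 8.03) in Cont stroma, a ratio of 2.20 (1.63 to 2.95). Over the same barcodes the 6 epithelial markers summed to 79.7 CPM in KO stroma and 13.0 CPM in Cont stroma, none of them at 0, and their part in the Hoxb levels was not tested.

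By counts, 4 of 22 members tested in stroma (18.2%) were at least 2-fold lower in KO, against 12.5% of the 14440 features tested. These were Hoxa3, Hoxa5, Hoxa9 and Hoxa11os, of which Hoxa3 was no longer past 2-fold at 0.530 with all deposited barcodes and at 0.603 with the immune level subtracted. Another 3 (13.6%), Hoxb2, Hoxc4 and Hoxc5, were at least 2-fold higher, against 5.7% of features. With doubled class thresholds Hoxc4 stood at 1.60 and Hoxc5 at 1.97, and by the mean over barcodes Hoxc5 stood at 1.91, no longer past 2-fold. The share of lower members is near that of all features and is no result about Hox genes as a group. The other 15 stayed within 2-fold, and 20 members did not reach 20 UMIs. The median log2 ratio was -0.21 over the 22 members and -0.05 over all features tested. Plasma cell genes (Jchain and Igkc, chosen after their values were seen) summed to 634 CPM in KO stroma and 177 CPM in Cont stroma. Of other cells, 5 pericyte markers summed to 26.6 CPM in KO stroma and 26.5 CPM in Cont stroma, and 4 mesothelial markers to 6.33 CPM in KO stroma and 3.18 CPM in Cont stroma, none of either list at 0. The part of these cells in the stromal ratios was not tested.

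**Figure D4:**
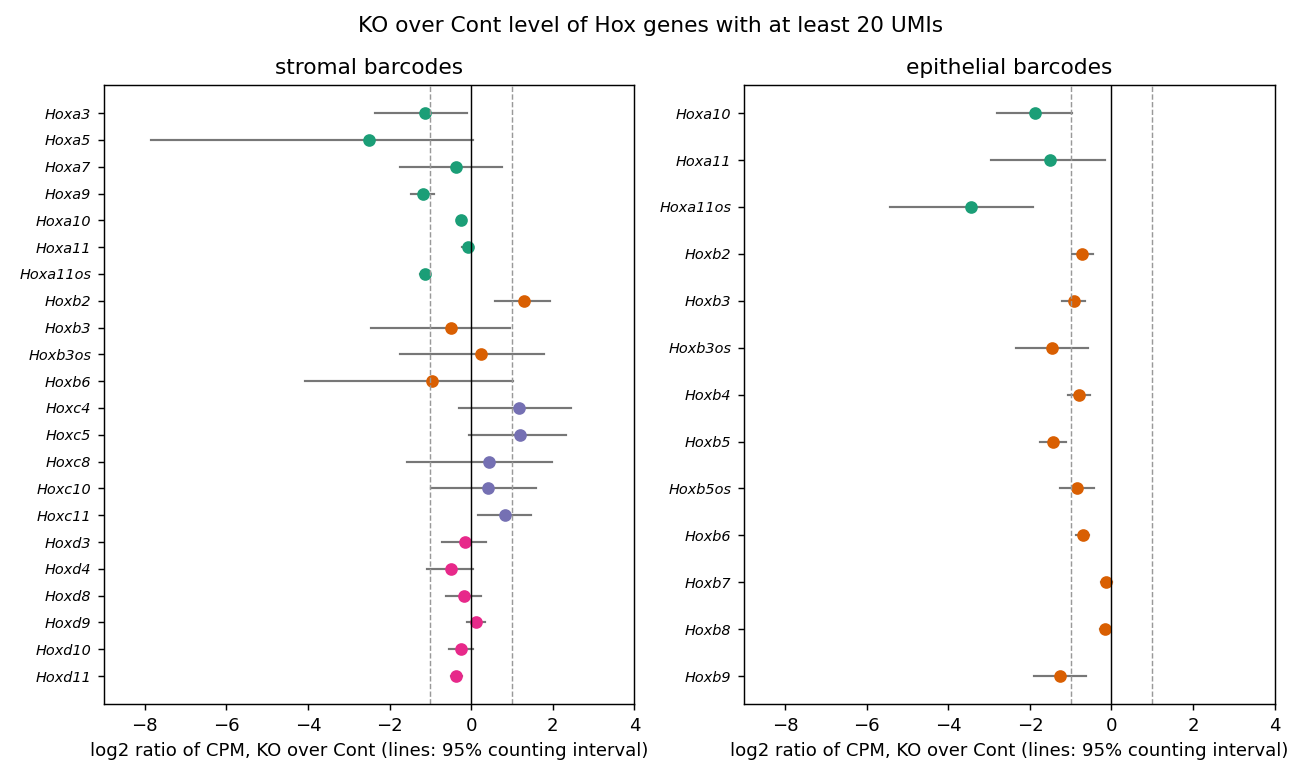
log2 ratio of KO over Cont level for each Hox gene with at least 20 UMIs in stromal (left) and epithelial (right) barcodes, with 95% counting intervals; dashed lines mark 2-fold. In stroma Hoxa3, Hoxa9 and Hoxa11os lie beyond the 2-fold line on the lower side with intervals clear of 0, Hoxa3 from 8 KO UMIs. In epithelium every point lies below 0, Hoxb7 and Hoxb8 closest to it.

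Barcodes with at least 10 UMIs per 10000 of Robo2, which encodes a guidance receptor, numbered 87 in KO stroma and 313 in Cont stroma. The split was chosen after values were seen, Hoxa11os among them, and is a description. Hoxa11os in Robo2-high over Robo2-low stroma had a ratio of 1.33 (1.02 to 1.72) in KO and 1.64 (1.55 to 1.73) in Cont. Hoxa10 had 1.21 (0.969 to 1.49) in KO and 1.60 (1.51 to 1.69) in Cont. Hoxa9 had 0.961 (0.404 to 1.97) in KO and 1.61 (1.41 to 1.83) in Cont. In Robo2-low stroma the KO over Cont ratio was 0.469 (0.431 to 0.510) for Hoxa11os and 0.466 (0.377 to 0.570) for Hoxa9. Both ratios were past 2-fold there. Depth differed between the libraries, so the same cut may not pick the same cells in both. The part of Robo2-high cells in the stromal ratios was not tested.

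In epithelium, Hoxb8 and Hoxb7 stayed within 2-fold between libraries, and Hoxb5 and Hoxb9 were lower in KO. Hoxb8 stood at 86.9 CPM (82.6 to 91.4) in KO and 97.3 CPM (91.5 to 103) in Cont, a ratio of 0.893 (0.825 to 0.967). Hoxb7 stood at 65.5 CPM (61.8 to 69.4) in KO and 71.7 CPM (66.7 to 77.0) in Cont, a ratio of 0.914 (0.833 to 1.00). The median ratio of genes with at least 100 UMIs lay at -0.14 (log2) in epithelium, and scaling by it put Hoxb8 at 0.982 and Hoxb7 at 1.01, on the other side of 1. Hoxb5 stood at 7.69 CPM (6.44 to 9.11) in KO and 20.7 CPM (18.1 to 23.6) in Cont, a ratio of 0.371 (0.297 to 0.462). Its opposite-strand neighbour Hoxb5os stood at 5.39 CPM (4.36 to 6.60) in KO and 9.66 CPM (7.89 to 11.7) in Cont, a ratio of 0.558 (0.418 to 0.745). Hoxb9, a partner of Hoxa9 and Hoxd9 in the mammary gland, stood at 2.07 CPM (1.45 to 2.86) in KO and 4.92 CPM (3.69 to 6.44) in Cont, a ratio of 0.420 (0.267 to 0.653). For Hoxb5 and Hoxb9 the intervals of the 2 libraries did not overlap.

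Hoxb6, the neighbour of Hoxb5, stood at 34.8 CPM (32.1 to 37.7) in KO and 56.8 CPM (52.4 to 61.5) in Cont, a ratio of 0.612 (0.546 to 0.686). Hoxb4, known from blood stem cells, stood at 13.1 CPM (11.4 to 14.9) in KO and 22.9 CPM (20.1 to 25.9) in Cont, a ratio of 0.573 (0.476 to 0.688). Hoxb3 stood at 11.6 CPM (10.1 to 13.4) in KO and 22.1 CPM (19.4 to 25.1) in Cont, a ratio of 0.527 (0.435 to 0.638). Hoxb2 stood at 15 CPM (13.3 to 17.0) in KO and 24.6 CPM (21.7 to 27.8) in Cont, a ratio of 0.611 (0.513 to 0.727). These 4 genes stayed within 2-fold, with intervals of the 2 libraries apart. Hoxb3os was called lower from 19 KO and 32 Cont UMIs, with a ratio of 0.367 (0.196 to 0.667), which thinning moved to 0.870. At 2000 UMIs per barcode Hoxb5 was present in 1.90% (1.25 to 2.77) of KO and 4.90% (3.44 to 6.75) of Cont epithelial barcodes. Hoxb8 was present in 15% (13.1 to 17.0) of KO and 17.8% (15 to 20.8) of Cont epithelial barcodes. Unthinned shares were 8.65% in KO and 24.0% in Cont for Hoxb5, and 54.4% in KO and 63.2% in Cont for Hoxb8. Immune barcodes held 0 Hoxb5 UMIs in both libraries, and Hoxb8 had 1 UMI there in KO and 0 in Cont. Median depths there were 1765 UMIs in KO and 5516 UMIs in Cont. The counting interval of the immune Hoxb5 level reached 125% of its epithelial level in KO and 18.9% in Cont. The KO count of 0 therefore cannot place the immune Hoxb5 level below the epithelial one. In the annotation Hoxb5os overlaps Hoxb5 and Hoxb6, and Hoxb3os overlaps Hoxb2 and Hoxb3, on opposite strands, which leaves their values uncertain.

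Of 13 members tested in epithelium, 6 (46.2%) were at least 2-fold lower in KO, against 15.5% of the 13397 features tested, and 0 were at least 2-fold higher, against 4.93%. The 6 were Hoxb3os, Hoxb5, Hoxb9, Hoxa10, Hoxa11 and Hoxa11os, and 29 members did not reach 20 UMIs. Hoxa10 stood at 0.918 CPM in KO and 3.34 CPM in Cont there, Hoxa11 at 0.459 CPM in KO and 1.30 CPM in Cont, and Hoxa11os at 0.230 CPM in KO and 2.51 CPM in Cont. These levels were at most 0.349% of the stromal level in KO and 1.03% in Cont, within or below the range of the stromal markers. Stromal barcodes made up 36.4% of KO and 73.9% of Cont barcodes, and the part of free stromal RNA in these 3 ratios was not tested. Hoxa11 was no longer past 2-fold at 0.975 without barcodes that met several class conditions and at 0.522 after thinning, and Hoxa11os at 0.563 with the immune level subtracted. With the loss of Hoxb3os after thinning, Hoxb5, Hoxb9 and Hoxa10 were the members past 2-fold under every alternative that gave a value, so the count of 6 rests in part on calls that did not hold. The median log2 ratio was -0.92 over the 13 members and -0.18 over all features tested.

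Within epithelium, the 12 Hoxb members together stood at 385 CPM in gland barcodes and 239 CPM in the remaining epithelium in KO. In Cont they stood at 453 CPM in gland barcodes and 319 CPM in the remaining epithelium. The ratio of gland over remaining epithelium had an interval above 1 for Hoxb3, Hoxb4 and Hoxb5os in both libraries. The same held for Hoxb8 in KO and for Hoxb3os, Hoxb5 and Hoxb7 in Cont. Gland barcodes, with at least 10 UMIs per 10000 of Foxa2, Prss28, Prss29 and Wif1, a split chosen after values were seen, numbered 64 in KO and 96 in Cont. Hoxb5os in gland over the remaining epithelium had a ratio of 4.53 (2.18 to 8.52) in KO and 3.40 (2.16 to 5.24) in Cont. Hoxb4 had 3.46 (2.10 to 5.44) in KO and 1.84 (1.31 to 2.55) in Cont. Hoxb3 had 2.34 (1.22 to 4.09) in KO and 1.87 (1.32 to 2.59) in Cont. For Hoxb5 the ratio was 2.17 (0.916 to 4.40) in KO, where the interval includes 1, and 2.20 (1.56 to 3.04) in Cont. Hoxb3os had 1.90 (0.0455 to 12.0) in KO, from 1 gland UMI, and 5.48 (2.49 to 11.7) in Cont, from 13 gland UMIs. Hoxb8 had 1.36 (1.03 to 1.77) in KO and 1.19 (0.989 to 1.43) in Cont, and Hoxb2 had 1.78 (0.936 to 3.11) in KO and 0.725 (0.446 to 1.12) in Cont. Hoxb7 had 1.27 (0.907 to 1.74) in KO and 1.36 (1.10 to 1.66) in Cont. Hoxb6 had 1.35 (0.847 to 2.04) in KO and 1.26 (0.984 to 1.59) in Cont, and Hoxb9 had 2.01 (0.234 to 7.84) in KO and 0.834 (0.259 to 2.08) in Cont. In the remaining epithelium the KO over Cont ratio of Hoxb5 was 0.407 (0.321 to 0.515) and that of Hoxb9 0.400 (0.25 to 0.634), past 2-fold without the gland barcodes. The gland markers that set the split summed to 212 CPM in KO epithelium and 1899 CPM in Cont epithelium. The same cut may therefore leave different cells in the remaining epithelium of the 2 libraries. The part of gland cells in the Hoxb5 and Hoxb9 ratios was not tested.

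**Figure D5:**
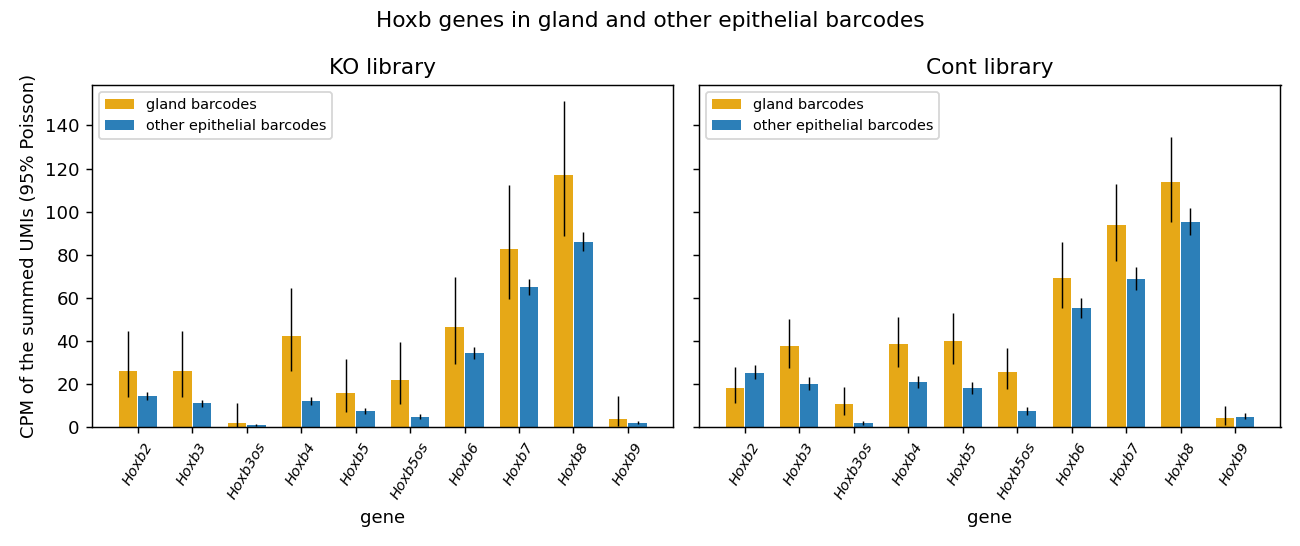
Level in CPM of Hoxb genes in gland barcodes and in the other epithelial barcodes, KO on the left and Cont on the right, with 95% Poisson intervals. Every gene shown except Hoxb2 and Hoxb9 stands higher in gland barcodes in both libraries. Among these genes the interval of the ratio includes 1 for Hoxb3os, Hoxb5, Hoxb6 and Hoxb7 in KO. In Cont it includes 1 for Hoxb6 and Hoxb8.

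Muscle barcodes carried mainly Hoxa and Hoxd transcripts, with a larger Hoxb share than stroma. All members together stood at 577 CPM (441 to 741) in KO muscle and 804 CPM (714 to 901) in Cont muscle, a ratio of 0.718 (0.536 to 0.949), and Hoxa members gave 68.9% of it in KO and 69.4% in Cont. Hoxb members gave 11.5% (4.74 to 22.2) of the Hox UMIs in KO muscle, from 7 UMIs, and 7.56% (4.80 to 11.2) in Cont muscle, from 22 UMIs, above their stromal shares in both libraries. Hoxb4 in muscle over stroma had a ratio of 22.4 (3.48 to 115) in KO, from 3 muscle UMIs, and 33.7 (9.29 to 103) in Cont, from 5 muscle UMIs. Of 6 members tested, Hoxa9, Hoxa10, Hoxa11, Hoxa11os, Hoxd9 and Hoxd11, 0 were past 2-fold in either direction, against 10.6% of 3609 features lower and 6.65% higher. Hoxa10 stood at 199 CPM in KO and 339.7 CPM in Cont, a ratio of 0.585 (0.350 to 0.934), from 21 KO and 123 Cont UMIs. The other 5 had ratios from 0.685 for Hoxa11 to 1.28 for Hoxa9, with intervals that include 1. Set against stroma, the muscle level of Hoxa11os was 0.336 (0.123 to 0.736) of the stromal one in KO and 0.215 (0.144 to 0.308) in Cont, while that of Hoxa10 was 0.732 (0.451 to 1.13) in KO and 1.04 (0.866 to 1.25) in Cont. Stromal markers summed to 833 CPM in KO muscle and 748 CPM in Cont muscle. The 5 pericyte markers summed to 482.5 CPM in KO muscle and 104.9 CPM in Cont muscle. The part of stromal cells and pericytes in the muscle levels was not tested.

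Endothelial barcodes had another pattern. Hoxa9, Hoxa10, Hoxa11 and Hoxd11 had 0 UMIs there in both libraries. The upper 95% Poisson limit for 0 UMIs there was 31.8 CPM in KO and 8.07 CPM in Cont. In KO that limit lay above the stromal Hoxa9 level of 27.6 CPM. Hoxb9 stood at 94.9 CPM in KO and 46.0 CPM in Cont, from 11 KO and 21 Cont UMIs. Its stromal level was 0.253 CPM in KO and 0.103 CPM in Cont. Its epithelial level, 2.07 CPM in KO and 4.92 CPM in Cont, was also below the endothelial one in both libraries. Hoxd9 stood at 43.2 CPM in KO and 35.0 CPM in Cont in endothelial barcodes, and Hoxd10 at 34.5 CPM in KO and 17.5 CPM in Cont. Hoxd8 had 0 KO and 21 Cont UMIs, and Hoxb4 had 1 KO and 18 Cont UMIs. Hoxb4 thus stood at 8.63 CPM in KO and 39.4 CPM in Cont, beside 13.1 CPM in KO epithelium and 22.9 CPM in Cont epithelium. Few barcodes, 40 in KO and 55 in Cont, stand behind these values.

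The DNA-binding partners of Hox proteins were measured too. Of 9 Pbx, Meis and Pknox genes, all 9 were tested in stroma and 8 in epithelium, and those tested there stayed within 2-fold between KO and Cont. In muscle 4 were tested, of which 1 was higher in KO, 2 were lower and 1 stayed within 2-fold, beside 6.65% of all features higher and 10.6% lower. Among these Pknox2 was higher, with a ratio of 2.74 (1.44 to 5.14), and Meis2 was lower, with a ratio of 0.415 (0.294 to 0.572).

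Of 18 chromatin regulators of Hox clusters, among them Polycomb and Trithorax proteins, all 18 were tested in stroma and epithelium. In stroma 1 was higher in KO, the Polycomb protein Cbx7, at 3.04 CPM in KO and 1.09 CPM in Cont, a ratio of 2.78 (1.30 to 5.54). Ezh2, the Polycomb methyltransferase, was lower, at 21.0 CPM in KO and 42.4 CPM in Cont, a ratio of 0.496 (0.392 to 0.620). Cbx8 was also lower, with 0 KO and 78 Cont UMIs. These counts stand beside 5.7% of all features higher and 12.5% lower in stroma. In epithelium 0 were higher and 3 were lower, beside 4.93% of all features higher and 15.5% lower. The 3 were Jarid2, with a ratio of 0.464 (0.433 to 0.498), Phc1, with 0.403 (0.309 to 0.525), and Cbx2, with 0.309 (0.106 to 0.818). The median log2 ratio of the 18 was 0.05 in stroma and -0.19 in epithelium, beside -0.05 and -0.18 over all features tested. In muscle 8 were tested, and Phc2 was called lower, with a ratio of 0.343 (0.0388 to 1.41) whose interval includes 1.

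Of 6 genes tied to Hoxa10 or Hoxa11 in the uterus, 2 were higher in KO stroma, 3 were lower and 1 stayed within 2-fold, beside 5.7% of all features higher and 12.5% lower. Ptger4, a prostaglandin E2 receptor, stood at 15.4 CPM in KO and 41.9 CPM in Cont, a ratio of 0.369 (0.280 to 0.477). Ptger3, another such receptor, had 0 KO and 78 Cont UMIs. Cdkn1c, a cell cycle inhibitor, stood at 23.8 CPM in KO and 50.1 CPM in Cont, a ratio of 0.475 (0.381 to 0.585). All 3 were lower. Itgb3, an integrin subunit, was higher at 111 CPM in KO and 48.3 CPM in Cont, a ratio of 2.29 (2.05 to 2.55). Lif, the cytokine needed for implantation in mice, was higher from 10 KO and 16 Cont UMIs, a ratio of 4.63 (1.88 to 10.9). Emx2, a homeodomain gene of the tract, stayed within 2-fold at 104 CPM in KO and 74.1 CPM in Cont, a ratio of 1.40 (1.25 to 1.55). In muscle 3 were tested, of which Ptger3 was called lower, with 4 KO and 75 Cont UMIs. In epithelium 5 were tested and Cdkn1c alone was past 2-fold, lower at 4.76 CPM in KO and 36.5 CPM in Cont, a ratio of 0.130 (0.102 to 0.166).

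Of 9 other transcripts of the clusters, 2 reached 20 UMIs in stroma and 0 in epithelium. Hoxd3os1, opposite Hoxd3 in the annotation, stood at 9.11 CPM in KO and 10.3 CPM in Cont, a ratio of 0.889 (0.611 to 1.26). Hoxaas3, opposite Hoxa3 to Hoxa7, was called lower from 2 KO and 35 Cont UMIs, with a ratio of 0.423 (0.0493 to 1.65) whose interval includes 1. Among the members that did not reach 20 UMIs in stroma, epithelium or muscle were Hoxa2, Hoxa4, Hoxa6, Hoxb1, Hoxc6, Hoxc9, Hoxd1 and Hoxd12, with at most 14 UMIs in a library and class, besides the 5 members at 0.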

How the data were processed

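Single cells of mouse uterus were profiled in 2 libraries. The authors deposited 1 matrix of whole-number counts per library, in which each entry is a UMI (unique molecular identifier) total for a gene in a barcode. The file headers name Cell Ranger 7.0.1 as the counter, and the submitters' processing notes add Seurat and mm39. No source used here says whether introns or strand entered the counting.

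Barcodes under 500 genes or over 15% mitochondrial UMIs were removed, and the highest Scrublet scores (scanpy 1.11.5) were removed at 0.8% per 1000 barcodes. This took 70 KO and 159 Cont barcodes as doublets and left 2881 and 4303. The libraries share 3 barcode sequences. Classes were set by summed markers per 10000 UMIs: stromal, Dcn, Col1a2 and Col3a1 at 10 or more; epithelial, Epcam, Krt8, Krt18 and Cldn7 at 10 or more; muscle, Actg2, Cnn1, Myh11 and Des at 20 or more. The 46 KO and 78 Cont barcodes that met more than one condition went to the class with the largest multiple of its threshold. Other barcodes were split into immune (Ptprc, Tyrobp, Fcer1g, Nkg7, Cd52 and Coro1a), endothelial (Pecam1, Cdh5, Emcn and Kdr), each at 10 or more, and remaining ones.

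Levels are UMI sums per class and library over that class's total UMIs, per 1000000 (CPM). A ratio is KO over Cont. Levels carry exact Poisson intervals, shares exact binomial (Clopper-Pearson) intervals and ratios exact conditional intervals, all at 95% (scipy 1.17.1). These intervals cover counting error alone. No test was made, since each group has 1 library. A gene was called where its ratio was at least 2 in either direction and the class held at least 20 UMIs over both libraries. For shares of positive barcodes at one depth, each barcode was thinned to 2000 UMIs and shallower ones were left out. The call rule and the ratio interval were tested on simulated counts for stroma and epithelium, with changes placed in genes with at least 100 UMIs. Filtering, class assignment, thinning and changes in genes with fewer UMIs were not tested in this way. A member past the UMI minimum in stromal, epithelial or muscle barcodes was named with its values there. The members and gene lists were chosen with earlier results of these data known. Values of some genes are not reported here.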

Additional observations from a re-analysis of the deposited data

Results flagged for a closer look

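For 3 Hoxb members the level in KO was above that in Cont in stromal barcodes and below it in epithelial barcodes, with a counting interval that left out a ratio of 1 in both classes. Hoxb8 had a ratio of KO over Cont of 8.89 in stromal barcodes, from 6 KO and 5 Cont UMIs, and of 0.893 in epithelial barcodes. Hoxb5os had a stromal ratio of 33.3, from 9 KO and 2 Cont UMIs, and an epithelial ratio of 0.558. Hoxb2 had a stromal ratio of 2.44, from 26 KO and 79 Cont UMIs, and an epithelial ratio of 0.611. In each case the difference was not tested. Epithelial markers outside the class rule summed to 79.7 CPM in KO stroma and to 13.0 CPM in Cont stroma, and their part in the stromal ratios was not tested. The stromal Hoxb8 level was 1.75% of the epithelial level in KO and 0.175% in Cont, against 0.421% to 1.65% in KO and 0.0424% to 0.639% in Cont for the 6 epithelial markers. For Hoxb2 the same share was 43.8% in KO and 11% in Cont, above all 6 markers in both libraries.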

How the results depend on the processing

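The summed Hox ratio of KO over Cont stayed below 1 in stromal, epithelial and muscle barcodes under all 8 alternatives. It moved beyond its counting interval to 0.757 in stroma with doubled class thresholds, to 0.786 in epithelium scaled by the median ratio of genes, and to 0.966 in muscle with barcodes counted in every class they met; the cause was not tested. The number of members at least 2-fold higher in KO stroma, 3, became 5 with all deposited barcodes and 5 with barcodes counted in every class, 6 at a minimum of 10 UMIs, and 1 each at double thresholds, after thinning to 2000 UMIs and at a minimum of 50 UMIs. Thinning reversed Hoxc4 in stroma to 0.610. The stromal ratios of Hoxa9 (0.362 to 0.487), Hoxa11os (0.451 to 0.485) and Hoxb2 (2.30 to 3.99) and the epithelial ratios of Hoxb5 (0.360 to 0.408) and Hoxb9 (0.224 to 0.462) were past 2-fold under all 8 alternatives. The class contrasts, with their alternatives chosen after seeing the data, held 8 to 12 stromal and 6 to 9 epithelial members. No paired analysis was possible because each group has 1 library. Depth limits the low members: 3 UMIs are 0.759 CPM in KO stroma and 0.103 CPM in Cont stroma.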
